A study of Mus musculus with 6 samples.

Results

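Heat shock transcription factor Hsf1 and 9 cytosolic heat shock proteins or their partners (Hspa1a, Hspa1b, Hspa8, Hsp90aa1, Hsp90ab1, Dnajb1, Hsph1, Hspb1 and Bag3) were followed in RNA-seq of hematopoietic stem cells with and without the lymphotoxin β receptor. The 10 genes were chosen by symbol as the heat shock factor with its best known chaperones, out of 26216 gene names in the files, and each was matched to 1 entry. All 10 were among the 13108 names with a mean in the upper 50 percent, which were the ones tested.

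The cells were LT/ST-HSCs (long-term and short-term hematopoietic stem cells) of murine mixed bone marrow chimeras. Lin-sca1+c-kit+ cells of Ltbr-/- donors, which carry CD45.2, and of Ltbr-proficient Ly5.1 donors, which carry CD45.1, had been transferred together, and the Ly5.1/Ly5.2 hosts had been lethally irradiated. Both genotypes therefore came out of the same host marrow, 6 weeks after transplantation, and were sorted as Annexin-V- Lin- sca1+ c-kit+ CD150+ CD48- cells. Each genotype was measured in 3 samples. The study's figure legend states that 6 chimeras were pooled to 3 biological replicates, so a sample is a pool of animals. The Ltbr-/- donors were between 10 and 13 weeks old and the Ly5.1 donors between 7 and 13 weeks. Donor genotype and congenic background cannot be told apart in this design, because all Ltbr-/- cells carried CD45.2 and all Ly5.1 cells CD45.1.

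The targeted gene followed the labels. Ltbr, the deleted receptor, had values of 24.2, 26.4 and 23.1 in Ltbr-/- and of 564, 549 and 522 in Ly5.1. Of 13 HSC markers tested, 2 were lower in Ltbr-/- by adjusted p and none was higher, and their summed level was 16104 to 16688 against 18403 to 18604. Of 10 markers of granulocyte and monocyte precursors 9 were lower, with a summed level of 44378 to 44892 in Ltbr-/- and 58076 to 62711 in Ly5.1. Of all tested names 4.18% were lower and 10.6% higher by adjusted p. Transcripts of 81 ribosomal proteins tested had a median log2 fold change of 0.79. By adjusted p and a 1.5-fold change 73 were called higher, against 2.78% of all tested names called in either direction. The total over all tested genes was 12947700 to 13254600 in Ltbr-/- and 11662600 to 11956600 in Ly5.1. The part of these differences in the results below was not tested.

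Heat shock proteins are chaperones, which bind unfolded or partly folded proteins and help them to fold, to stay soluble or to be degraded. Hsp70 proteins do this in cycles of ATP binding and hydrolysis: J-domain proteins bring them their clients and speed up hydrolysis, nucleotide exchange factors let the client go, and Hsp90 proteins take over many signalling proteins for their last folding steps. Hsf1 is held inactive by chaperones in resting cells. When misfolded proteins draw the chaperones away it forms trimers, binds heat shock elements made of repeated nGAAn units, and switches on genes such as Hspa1a and Hspa1b. Hematopoietic stem cells are known for a low rate of protein synthesis and for needing tight control of protein quality.

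Promoter sequences were at hand for 6 of the 10 genes (RefSeq, GRCm38.p6), from 250 bases before to 50 bases after the start of transcription. They are shown upstream of the start for the inducible pair Hspa1a and Hspa1b, which had the largest log2 fold changes of the 10. Hspb1 and Hsph1 are shown as well, since they also hold matches to the letters marked below. Each is written 5′ to 3′ in the direction of the gene up to the base before the start. Capitals mark matches to GAANNTTC or TTCNNGAA, the 2 arrangements of a pair of facing nGAAn units. Both are palindromes, so 1 search covers both strands.
Hspa1a, chr17:34972157-34972406, minus strand: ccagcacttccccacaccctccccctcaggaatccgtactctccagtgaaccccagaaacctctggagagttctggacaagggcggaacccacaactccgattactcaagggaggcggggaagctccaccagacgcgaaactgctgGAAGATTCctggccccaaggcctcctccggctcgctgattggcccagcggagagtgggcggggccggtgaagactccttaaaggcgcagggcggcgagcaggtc
Hspa1b, chr17:34959239-34959488, minus strand: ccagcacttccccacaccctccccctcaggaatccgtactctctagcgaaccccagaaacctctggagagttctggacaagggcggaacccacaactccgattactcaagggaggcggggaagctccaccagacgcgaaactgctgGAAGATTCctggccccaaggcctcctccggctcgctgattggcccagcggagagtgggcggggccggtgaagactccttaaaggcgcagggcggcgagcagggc
Hspb1, chr5:135887769-135887918, plus strand: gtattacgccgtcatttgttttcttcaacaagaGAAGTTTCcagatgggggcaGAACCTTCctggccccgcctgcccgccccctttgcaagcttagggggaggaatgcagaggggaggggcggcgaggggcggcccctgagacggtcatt
Hsph1, chr5:149636337-149636486, minus strand: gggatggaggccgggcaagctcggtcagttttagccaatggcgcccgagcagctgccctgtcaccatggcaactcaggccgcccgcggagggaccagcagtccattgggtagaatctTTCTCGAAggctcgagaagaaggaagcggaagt

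The upstream sequences of Hspa1a and Hspa1b are nearly the same, and both hold 1 GAANNTTC match at the same place. Over the whole 300 bases the pair differed at 4 positions, which is 98.7% identity. Counted from 1 at the 5′ end of the window, with the Hspa1a base first, the differences were C44T, T47C, T249G and C276T. The pair lies on chromosome 17 with 10120 bases between the genes. A match to either arrangement was found in windows of 5 of the 6 genes: Hspa1a, Hspa1b, Hspb1, Hsph1 and Bag3, but not in the windows of Dnajb1. Over all 32851 promoter windows of the same length 15.1% held a match, with GAANNTTC in 7.86% and TTCNNGAA in 8.52%. Each window of Hsph1 held 3 matches and 1 arrangement of 3 alternating units, which lies downstream of the start and is not in the stretch shown. An arrangement of 3 such units was found in 0.603% of all windows. These matches describe letters in the windows and were not measured as binding sites.

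All values below are on the linear scale of the deposited files, which the authors had normalised between samples with a regularized log; the linear scale was read from the values themselves. Differences are log2 fold changes of Ltbr-/- minus Ly5.1 with the SE of a limma fit over all tested names, and adjusted p is by Benjamini-Hochberg over all of these. In bulk RNA, fewer cells with a transcript and less of it per cell cannot be told apart.

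Hspa1a and Hspa1b, the stress-inducible cytosolic Hsp70 genes, were lower in Ltbr-/- LT/ST-HSCs by 19.3% and 19.8%, whereas Hspa8, the constitutive Hsc70, was slightly higher in the values as deposited. No member reached a fold of 1.5. When both an adjusted p under 0.05 and a 1.5-fold change were asked for, limma called 0 of the 10 genes, against 2.78% of all tested names. By adjusted p alone 1 was higher (Hspa8) and 2 were lower (Hspa1a and Hspa1b), against 10.6% higher and 4.18% lower of all tested names. At an unadjusted p under 0.05 there were 4 of 10 with limma and 5 of 10 with a linear model fitted to each gene alone, which called 0 by adjusted p and fold; of all tested names these were 27.1% and 21.6%. The 3 samples of each genotype did not overlap for 3 genes that were higher and 3 that were lower, while 17.0% of tested names were higher and 13.5% lower without overlap. The median log2 fold change of the 10 was -0.08, and that of all tested names was -0.01.

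**Figure D1:**
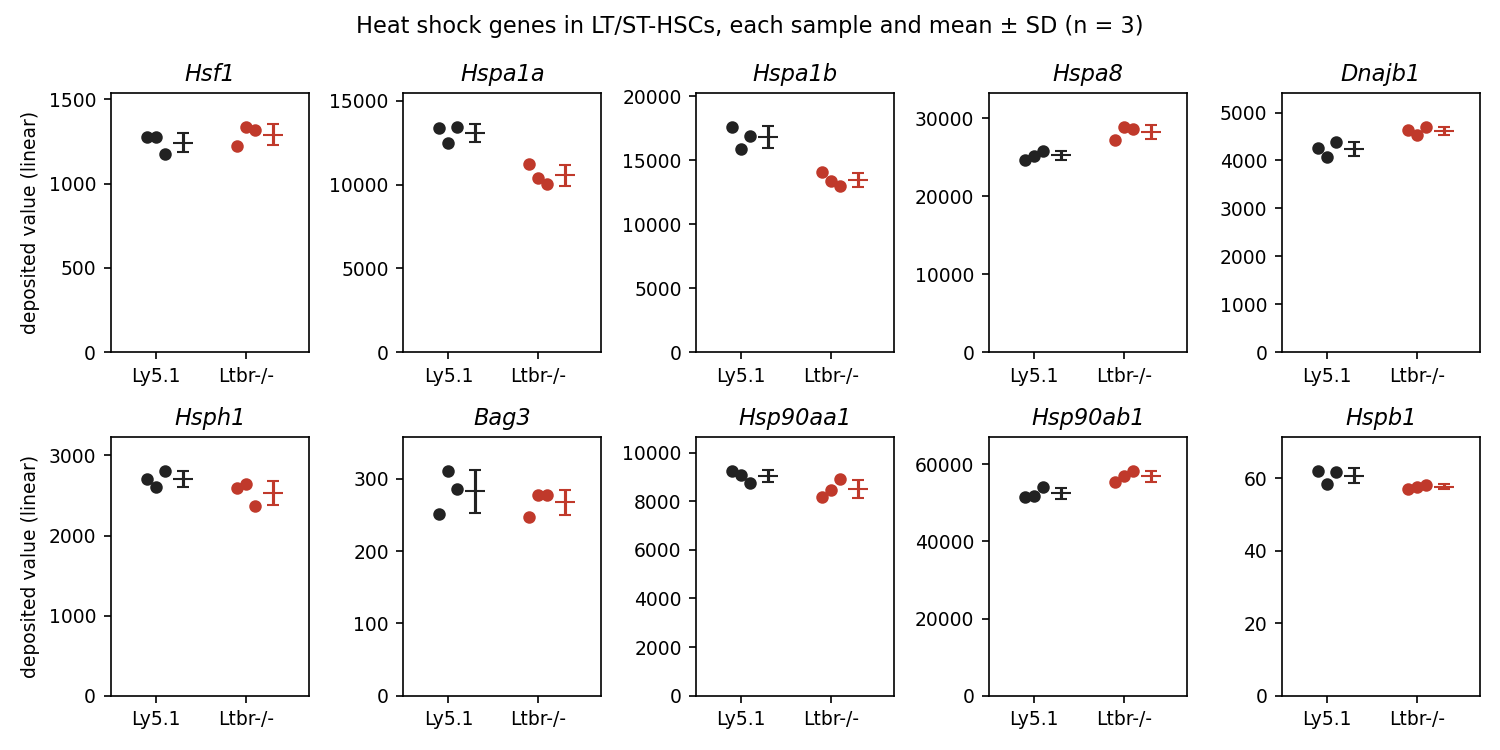
Deposited values (linear, y axis from 0) of the 10 genes in each sample, with Ly5.1 in black and Ltbr-/- in red, and the mean ± SD (n = 3) beside the points. The groups are apart and lower in Ltbr-/- for Hspa1a, Hspa1b and Hspb1. They are apart and higher for Hspa8, Hsp90ab1 and Dnajb1, and overlapping for the other 4 genes. Under quantile normalization Hspa8 and Hsp90ab1 are lower, and Dnajb1 has a log2 fold change of -0.02 (limma adjusted p = 0.856).

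Hsf1, the regulator, was alike in both genotypes. Its values were 1221, 1335 and 1316 in Ltbr-/- and 1277, 1274 and 1177 in Ly5.1. The groups overlapped, with means of 1291 ± 61.2 and 1243 ± 56.9 (SD, n = 3). The log2 fold change was 0.05 (SE 0.086, 95% interval -0.12 to 0.23, limma adjusted p = 0.737), and it was -0.10 when samples were scaled to equal totals. The RNA level of Hsf1 does not report its activity, which is set mainly by its binding to chaperones, its phosphorylation and its trimers.

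Hspa1a encodes an inducible Hsp70 that is made within minutes of heat or proteotoxic stress and, like its neighbour, has no introns. Its values were 11258, 10392 and 10037 in Ltbr-/- and 13354, 12465 and 13424 in Ly5.1. The highest Ltbr-/- sample lay below the lowest Ly5.1 sample. The means were 10563 ± 628 and 13081 ± 535 (SD, n = 3), a log2 fold change of -0.31 (SE 0.064, 95% interval -0.44 to -0.18, limma adjusted p = 0.000455).

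Hspa1b, which encodes nearly the same protein, moved with it. The values were 14048, 13357 and 12993 in Ltbr-/- and 17576, 15904 and 16927 in Ly5.1. All 3 Ltbr-/- samples were again below all 3 Ly5.1 samples, and in both genes replicate 1 was the highest and replicate 3 the lowest of the Ltbr-/- samples. Means were 13466 ± 536 and 16802 ± 843 (SD, n = 3), with a log2 fold change of -0.32 (SE 0.061, 95% interval -0.44 to -0.20, limma adjusted p = 0.000149). The exact permutation test on a single gene could not go below p = 0.1 with 3 against 3 samples, and it gave 0.1 for both genes.

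These transcripts are hard to keep apart by short reads. Of the 76-base windows of the Hspa1a transcript 54.0% occurred identically in another annotated gene, almost all in Hspa1b, and for Hspa1b it was 55.6%. Their sum, which does not depend on how reads were divided between them, was 25306, 23749 and 23030 in Ltbr-/- and 30930, 28369 and 30351 in Ly5.1. It differed by -0.31 on the log2 scale, as each gene did. The Hspa1b to Hspa1a ratio was 1.28 ± 0.0247 in Ltbr-/- and 1.28 ± 0.0286 in Ly5.1 (SD, n = 3), a log2 difference of -0.0095 (exact two-sided permutation p = 0.8). Hspa1a and Hspa1b were lower in Ltbr-/- under all 19 other settings tried, with log2 fold changes of -0.66 to -0.27 and -0.68 to -0.29. With equal totals they were at -0.46 and -0.47, below the median of all tested names, which that scaling moved to -0.16. Without a filter on low values Hspa1a had an adjusted p of 0.0716, and with a linear model for each gene alone the adjusted p was 0.0865 for Hspa1a and 0.0673 for Hspa1b.

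Hspa8 encodes Hsc70, the Hsp70 that cells make without stress for folding, protein import and the uncoating of clathrin vesicles. Its values were 27189, 28841 and 28632 in Ltbr-/- and 24663, 25171 and 25850 in Ly5.1. The lowest Ltbr-/- sample was above the highest Ly5.1 sample. Means were 28221 ± 900 and 25228 ± 595 (SD, n = 3), and the log2 fold change was 0.16 (SE 0.053, 95% interval 0.05 to 0.27, limma adjusted p = 0.0347). This direction depended on the scaling, since Hspa8 had a log2 fold change of 0.0089 with equal totals (adjusted p = 0.877) and of -0.26 after quantile normalization (adjusted p = 5.17e-05). Leaving out Ltbr-/- replicate 2 or 3, or Ly5.1 replicate 1 or 2, raised the adjusted p to 0.203, 0.151, 0.139 and 0.0592. In all, the call of Hspa8 was lost in 10 of 19 other settings and its direction turned in 1. In addition, 67.7% of the 76-base windows of the Hspa8 transcript occurred in other annotated genes, mostly in the pseudogene Gm15459.

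The balance between the constitutive and the inducible Hsp70 transcripts shifted within each sample. The ratio of Hspa8 to the sum of Hspa1a and Hspa1b was 1.07, 1.21 and 1.24 in Ltbr-/- and 0.797, 0.887 and 0.852 in Ly5.1. The lowest Ltbr-/- ratio was above the highest Ly5.1 ratio. Deposited values are not divided by transcript length, so a ratio of 1 does not mark equal amounts of the transcripts. Mean ratios were 1.18 ± 0.0903 and 0.845 ± 0.0453 (SD, n = 3), a log2 difference of 0.48 (exact two-sided permutation p = 0.1, the smallest that 3 against 3 samples allow). A factor applied to a whole sample cancels in this ratio. A ratio shows unequal change and does not say which of its transcripts changed.

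Hsp90ab1 encodes the constitutive Hsp90β and Hsp90aa1 the more inducible Hsp90α. The values of Hsp90ab1 were 55514, 56872 and 58351 in Ltbr-/- and 51463, 51900 and 54156 in Ly5.1. The groups did not overlap, with means of 56912 ± 1419 and 52506 ± 1446 (SD, n = 3) and a log2 fold change of 0.12 (SE 0.046, 95% interval 0.02 to 0.21, limma adjusted p = 0.0879). Without Ly5.1 replicate 3 the adjusted p was 0.0121. With equal totals the log2 fold change of Hsp90ab1 was -0.04 and after quantile normalization -0.51.

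Hsp90aa1 had values of 8171, 8463 and 8903 in Ltbr-/- and 9252, 9096 and 8758 in Ly5.1. The groups overlapped, since Ltbr-/- replicate 3 was above Ly5.1 replicate 3. Means were 8512 ± 368 and 9035 ± 252 (SD, n = 3), with a log2 fold change of -0.09 (SE 0.065, 95% interval -0.22 to 0.05, limma adjusted p = 0.421). This result depended on the scaling. The log2 fold change was -0.38 after quantile normalization (limma adjusted p = 1.11e-05). With equal totals it was -0.24 (limma adjusted p = 0.00249), where the median of all tested names was -0.16. The windows of Hsp90aa1 were shared to 52.9% with other annotated genes, mostly Gm12346, whereas those of Hsp90ab1 were shared to 0.654%.

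Within a sample the ratio of Hsp90aa1 to Hsp90ab1 was 0.147, 0.149 and 0.153 in Ltbr-/- and 0.180, 0.175 and 0.162 in Ly5.1. It was lower in all 3 Ltbr-/- samples, with means of 0.150 ± 0.00276 and 0.172 ± 0.00940 (SD, n = 3) and a log2 difference of -0.20 (exact two-sided permutation p = 0.1); quantile normalization turned the difference to 0.13. The ratio of both Hsp90 transcripts to Hspa8 was 2.32 ± 0.0465 in Ltbr-/- and 2.44 ± 0.0199 in Ly5.1 (SD, n = 3), a log2 difference of -0.07 (exact two-sided permutation p = 0.1). In the values as deposited, the inducible transcript had the lower share in Ltbr-/- in both families, which held under quantile normalization for Hsp70 but not for Hsp90.

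**Figure D2:**
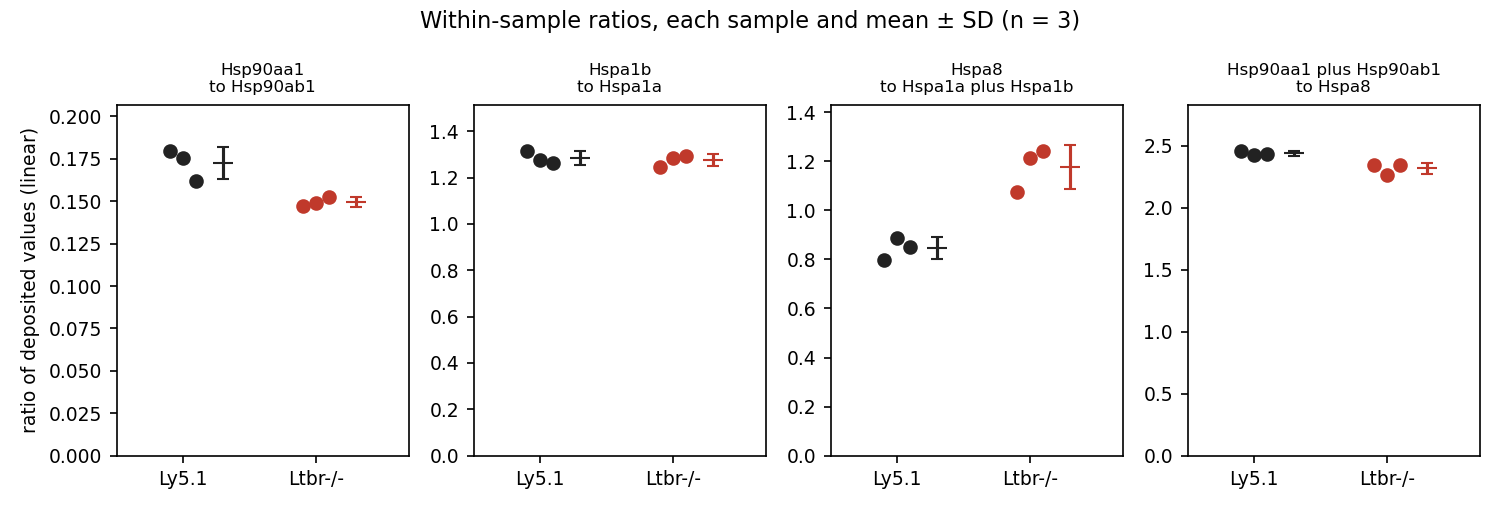
Within-sample ratios of deposited values (linear, y axis from 0), with Ly5.1 in black, Ltbr-/- in red and the mean ± SD (n = 3) beside the 3 samples. Hspa8 to Hspa1a plus Hspa1b is higher in each Ltbr-/- sample than in any Ly5.1 sample. Hsp90aa1 to Hsp90ab1 is lower in Ltbr-/- (higher under quantile normalization), and Hspa1b to Hspa1a overlaps. Values are not divided by transcript length, so a ratio of 1 does not mark equal amounts.

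Dnajb1 encodes Hsp40, the J-domain partner that delivers clients to the inducible Hsp70 and takes part in shutting off Hsf1. Its values were 4625, 4536 and 4693 in Ltbr-/- and 4266, 4081 and 4378 in Ly5.1. They did not overlap, with means of 4618 ± 78.4 and 4241 ± 150.2 (SD, n = 3), but the log2 fold change of 0.12 (SE 0.072, 95% interval -0.02 to 0.27) had a limma adjusted p of 0.273. It was -0.03 with equal totals and -0.02 after quantile normalization.

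Hsph1 encodes Hsp110, a large Hsp70 relative that acts as a nucleotide exchange factor for Hsp70. The values were 2589, 2644 and 2366 in Ltbr-/- and 2708, 2605 and 2809 in Ly5.1, and the groups overlapped. The means were 2533 ± 147 and 2707 ± 102 (SD, n = 3), with a log2 fold change of -0.10 (SE 0.079, limma adjusted p = 0.463). With equal totals Hsph1 was at -0.25 (limma adjusted p = 0.00964), where the median of all tested names was -0.16. After quantile normalization it was at -0.17 (limma adjusted p = 0.125). Bag3, the other exchange factor, links Hsp70 to small heat shock proteins and selective autophagy. It had values of 248, 277 and 278 in Ltbr-/- and 252, 311 and 286 in Ly5.1. These overlapped over most of their range, with means of 268 ± 17.5 and 283 ± 29.7 (SD, n = 3) and a log2 fold change of -0.08 (SE 0.097, limma adjusted p = 0.660). With equal totals Bag3 was at -0.23 (limma adjusted p = 0.0475), and after quantile normalization at -0.07 (limma adjusted p = 0.668).

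Hspb1, the small heat shock protein Hsp27 (Hsp25 in mice), holds unfolded proteins without using ATP. It had the lowest values of the 10, which were 57.0, 57.7 and 58.3 in Ltbr-/- and 62.1, 58.3 and 61.9 in Ly5.1. The groups did not overlap, but Ltbr-/- replicate 3 and Ly5.1 replicate 2 were the same to 3 digits. Means were 57.6 ± 0.667 and 60.8 ± 2.11 (SD, n = 3), and the log2 fold change was -0.08 (SE 0.064, limma adjusted p = 0.482). With equal totals Hspb1 was at -0.23 (limma adjusted p = 0.00532), where the median of all tested names was -0.16. After quantile normalization it was at -0.07 (limma adjusted p = 0.509). A regularized log pulls the samples of a gene with few reads together, so both the difference and the spread of Hspb1 may be understated on this scale. Its windows were shared to 47.1% with the pseudogene Hsp25-ps1.

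**Figure D3:**
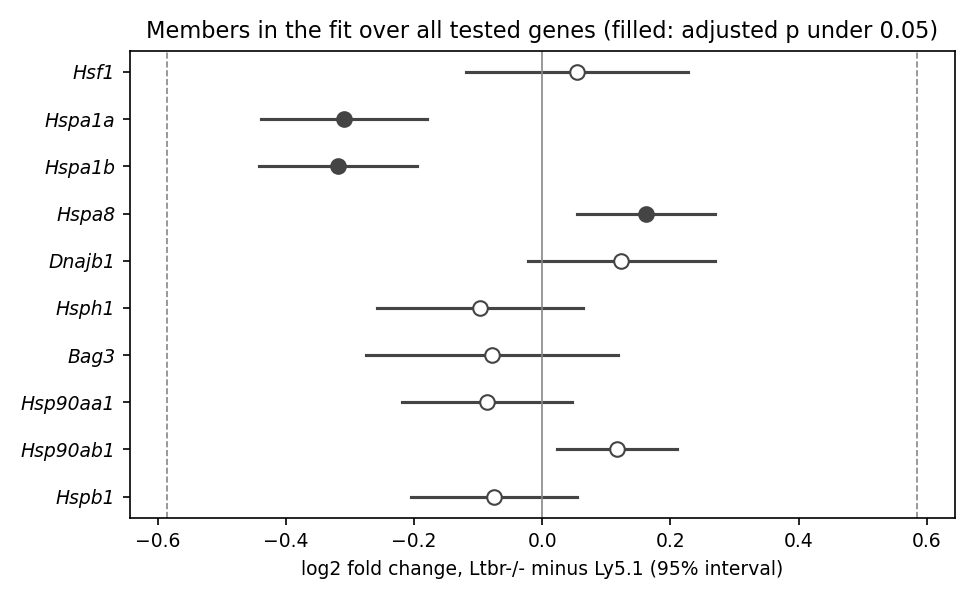
Log2 fold change of Ltbr-/- minus Ly5.1 (x axis) for each of the 10 genes (y axis) with its 95% interval, from the fit over all tested names, filled where adjusted p was under 0.05, with dashed lines at a fold of 1.5 in either direction. Hspa1a (-0.31) and Hspa1b (-0.32) stand apart from the other 8, which lie between -0.10 and 0.16, and Hspa8 (0.16) falls to 0.0089 with equal totals and to -0.26 under quantile normalization.

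Per length of transcript the 10 genes kept the same order in both genotypes. In Ly5.1 the level, as the deposited value per 1000 bases of transcript, was 20836 for Hsp90ab1, 10538 for Hspa8, 5994 for Hspa1b, 4409 for Hspa1a and 2754 for Hsp90aa1. It was 1416 for Dnajb1, 712 for Hsph1, 591 for Hsf1, 111 for Bag3 and 65.4 for Hspb1. Constitutive Hsp90β and Hsc70 thus stood at the top, with the inducible Hsp70 pair next and above the inducible Hsp90α. Within a genotype, neighbours in this order overlapped only for Hsph1 and Hsf1 in Ltbr-/-, and the levels of these genes over all 6 samples were 622 to 739 and 559 to 635. In sum, the 9 chaperone genes had values of 125150 ± 1330 in Ltbr-/- and 123946 ± 2548 in Ly5.1 (SD, n = 3), a difference smaller than the SD in Ly5.1. This holds for the values as deposited, where the log2 difference was 0.01 for this sum and 0.15 for the total over all tested genes. After quantile normalization Hsp90ab1 and Hspa8, which had the highest values, were lower in Ltbr-/- (-0.51 and -0.26).

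**Figure D4:**
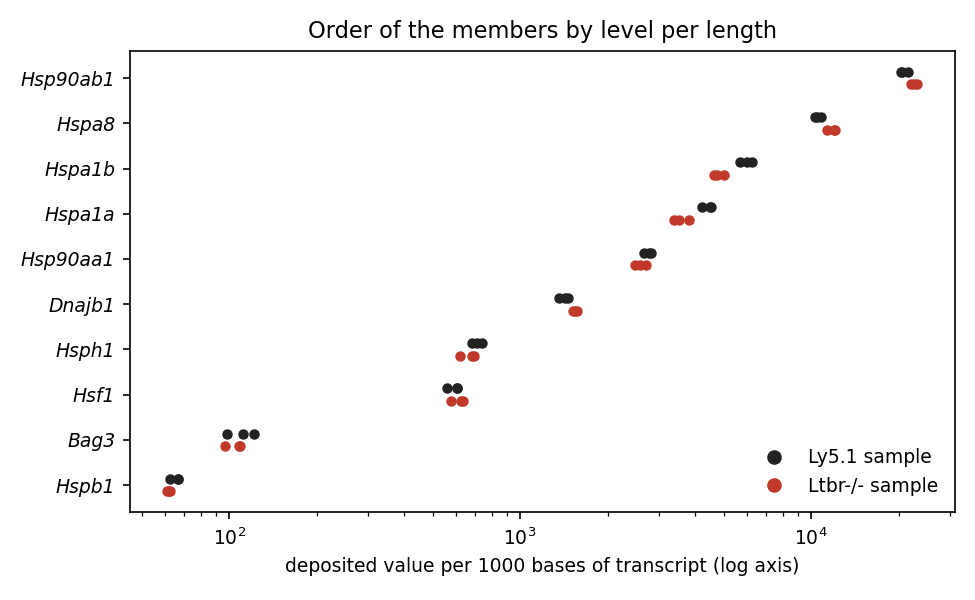
Deposited value per 1000 bases of transcript (x axis, log scale) for each gene (y axis) in each sample, with Ly5.1 in black and Ltbr-/- in red. The genes run from Hspb1 (65.4 in Ly5.1) to Hsp90ab1 (20836), in the same order in both genotypes.

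Around the 10 genes, lists of their regulators, partners and targets held 104 further genes, of which 89 were tested. By the same rule of adjusted p and fold, limma called 0 of the 89, as did the linear model for each gene alone, and at an unadjusted p under 0.05 there were 31 (34.8%) and 26 (29.2%), against 27.1% and 21.6% of all tested names. By adjusted p alone 13 (14.6%) were higher in Ltbr-/- and 1 (1.12%) was lower, against 10.6% and 4.18%, and the median log2 fold change was 0.04. This split followed the scaling, with 7 higher and 11 lower after quantile normalization and 6 higher and 26 lower with equal totals. With equal totals the median of these 89 genes was -0.11, above the -0.16 of all tested names.

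Of 10 other heat shock factors and modulators of Hsf1, 1 was higher by adjusted p (10.6% of all tested names) and none lower (4.18%). This was Hsbp1, which binds the trimer domain of Hsf1 and restrains it, with 1361, 1521 and 1484 in Ltbr-/- and 854, 958 and 1242 in Ly5.1. The groups did not overlap, with Ly5.1 replicate 3 nearest to Ltbr-/- (log2 fold change 0.53, SE 0.101, limma adjusted p = 0.000139). It was also higher after quantile normalization (0.50) and with equal totals (0.38).

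Among 14 other heat-inducible Hsf1 target genes 3 were higher and none lower by adjusted p, with a median of 0.04. Of all tested names 10.6% were higher and 4.18% lower. Jmjd6, an oxygenase that acts on proteins of the splicing machinery, had means of 1847 ± 18.7 in Ltbr-/- and 1260 ± 74.1 in Ly5.1 (SD, n = 3), a log2 fold change of 0.55 (SE 0.084, limma adjusted p = 3.36e-06). Hspe1, the mitochondrial Hsp10, had means of 1627 ± 59.9 and 1143 ± 114.4 (SD, n = 3), a log2 fold change of 0.51 (SE 0.088, limma adjusted p = 3.13e-05). Both stayed higher after quantile normalization and with equal totals. Hspe1 shares its promoter with Hspd1, the Hsp60 that it caps, for which the fit gave an limma adjusted p of 0.976. The third was the ubiquitin gene Ubb, at 0.24 (SE 0.056, limma adjusted p = 0.00163), which turned to -0.19 after quantile normalization.

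For Bag3 the list of partners and selective autophagy genes had 9 tested members. By adjusted p 2 of these were higher and none lower, against 10.6% and 4.18% of all tested names. Sqstm1, the autophagy receptor p62, had 3223, 3013 and 3049 in Ltbr-/- and 2260, 1972 and 2051 in Ly5.1. Its groups were well apart (log2 fold change 0.57, SE 0.080, limma adjusted p = 9.55e-07), and it stayed higher after quantile normalization (0.49) and with equal totals (0.41). Map1lc3b, which encodes LC3 on autophagosome membranes, was at 0.27 (SE 0.094, limma adjusted p = 0.0461), and at 0.12 with equal totals (adjusted p = 0.281).

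In the Hsp70 family 1 of 9 further genes was lower by adjusted p and none higher, namely Hyou1, the exchange factor Grp170 of the endoplasmic reticulum, with means of 2486 ± 36.0 and 3020 ± 240.6 (SD, n = 3) and a log2 fold change of -0.28 (SE 0.079, limma adjusted p = 0.0135). Hyou1 was also lower after quantile normalization (-0.35) and with equal totals (-0.43). It also stood in the list of exchange factors, where it was the 1 of 10 further genes to pass. None of 12 further J-domain genes passed in either direction. For these lists too, the shares of all tested names were 10.6% higher and 4.18% lower. Of 21 further Hsp90 paralogues and cochaperones 2 were higher, the immunophilin Fkbp8 (0.28, limma adjusted p = 0.00797) and the kinase-loading cochaperone Cdc37 (0.23, limma adjusted p = 0.0216), and neither passed after quantile normalization or with equal totals (adjusted p = 0.110 and 0.433, and 0.136 and 0.308). Of 9 further small heat shock proteins 2 were tested, and Hspb11, a small protein of the ciliary transport machinery, was higher (0.30, limma adjusted p = 0.0294; 0.15 with equal totals, adjusted p = 0.194).

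Endoplasmic reticulum chaperones, which answer to the unfolded protein response rather than to Hsf1, included 18 tested genes with 4 higher and 1 lower by adjusted p. The shares of all tested names were 10.6% and 4.18%. The disulfide isomerase P4hb was at 0.39 (SE 0.064, limma adjusted p = 1.46e-05) and the secreted factor Manf at 0.36 (SE 0.082, limma adjusted p = 0.00140). Sdf2l1 was at 0.28 and Pdia6 at 0.25, while Hyou1 was the 1 that was lower. After quantile normalization P4hb was at 0.06 (adjusted p = 0.554), Sdf2l1 at 0.25 (adjusted p = 0.0722) and Pdia6 at 0.08 (adjusted p = 0.453). With equal totals Sdf2l1 and Pdia6 did not pass either (adjusted p = 0.266 and 0.237), while P4hb and Manf did (0.00223 and 0.0312). The main Hsp70 of this compartment, Hspa5, had a log2 fold change of -0.12 (limma adjusted p = 0.216).

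Immediate early genes are switched on within minutes of a growth signal or other stimulus. Of 15 tested 4 were lower by adjusted p, where 4.18% of all tested names were, and none was higher, with a median of -0.16 and a summed level of 44226 to 46734 in Ltbr-/- and 52615 to 55166 in Ly5.1. They were Jun (-0.35, SE 0.065, limma adjusted p = 0.000133), Zfp36 (-0.33, SE 0.072, limma adjusted p = 0.000825), Fos (-0.29, SE 0.063, limma adjusted p = 0.000689) and Egr1 (-0.25, SE 0.076, limma adjusted p = 0.0229). These 4 were also lower after quantile normalization and with equal totals. The other 11 did not pass, and of these Jund (0.21, limma adjusted p = 0.0916), Ier3 (0.07) and Btg2 (0.06) had values above 0. Their part in the difference of Hspa1a and Hspa1b was not tested.

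**Figure D5:**
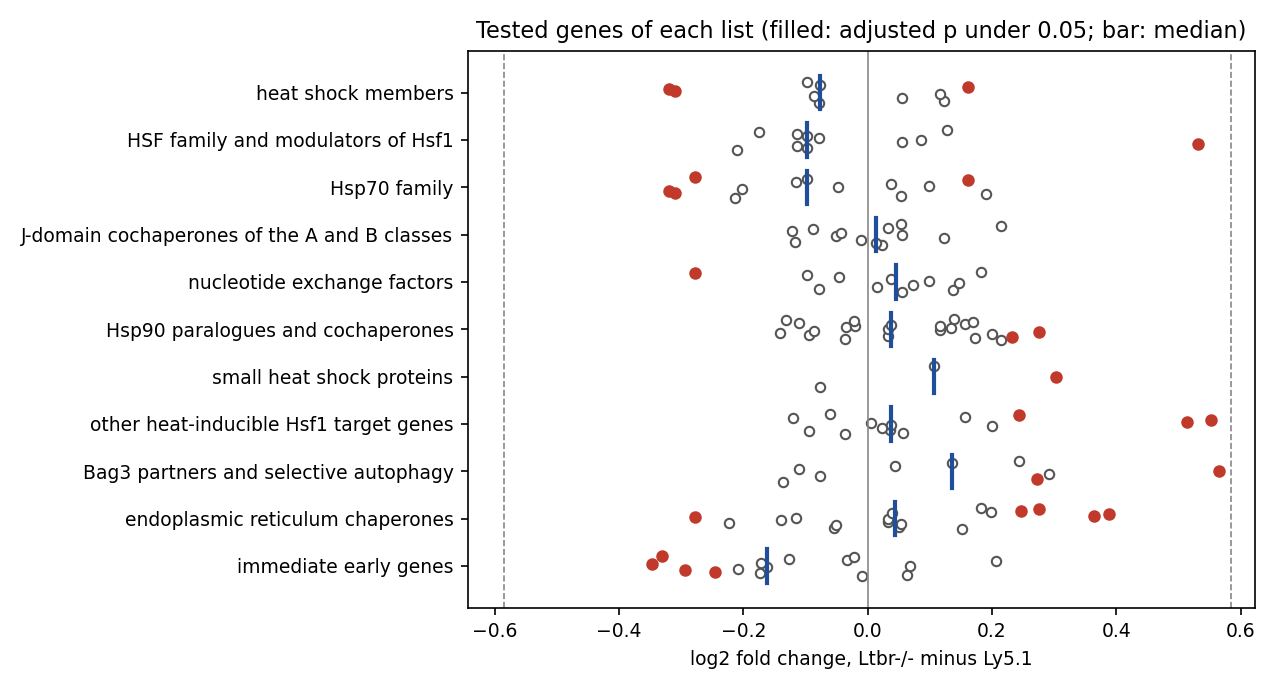
Log2 fold change of Ltbr-/- minus Ly5.1 (x axis) of each tested gene of each list (y axis; a gene can stand in several lists), filled red where adjusted p was under 0.05, with a blue bar at the list's median and dashed lines at a fold of 1.5 in either direction. Medians of the 11 lists drawn (cell type markers and ribosomal proteins are not) run from -0.16 for the immediate early genes to 0.14 for the Bag3 partners, in the values as deposited.

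Of the 10 genes Hspa1b had the widest range of log2 values over the 6 samples. The genes most like it, by Pearson's r of log2 values over these 6 samples, were Arid1b, Vwa8, Thrap3, Tnfaip3 and Gtf2i, with r of 0.995, 0.995, 0.994, 0.993 and 0.993. Their log2 fold changes were -0.30, -0.32, -0.22, -0.39 and -0.29, so each had the difference between genotypes in it as well as the spread within them. They were picked from all tested names for this likeness, and r is given as a description only.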

How the data were processed

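RNA of 3 Ltbr-/- and 3 Ly5.1 samples was sequenced, and per the study's methods the authors assembled reads with SeqMan NGen and quantified them with ArrayStar, and computed regularized log values; DESeq2 and the builds GRCm38 and mm10 are named in the submitters' processing notes. The annotation is not given in the sources used here. The deposited values are a normalised signal per gene name, which was taken as 2 to the power of a regularized log from its values (9034 names have the same value in every sample). Such values shrink the differences of genes with few reads. The files hold no counts or totals, so the depth of each sample is unknown and no counting interval is given. Each file has 26595 entries and 26216 names, with the entry of the highest mean kept for a repeated name, and 0 columns were left unused.

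Log2 values of the 13108 names with a mean in the upper 50 percent were fitted with limma 3.58.1 (R 4.3.3; no pseudocount, variance trend, Benjamini-Hochberg over all tested names), and single ratios were tested by exact two-sided permutation over 20 assignments. The study calls the pools biological replicates but does not state whether they were transplanted or sorted apart. The p-values therefore measure the spread between these samples only. On simulated data of 13108 genes in the same Ltbr-/- against Ly5.1 design, 31% of 1.25-fold and 99% of 2-fold changes were recovered (100 genes each). Of the calls, 1.52% fell on genes that had not been altered. No 1.5-fold change was simulated, so these shares do not say how often such a change would pass adjusted p and fold. The members and lists were chosen with earlier results of these data known. All 10 members were named, then list genes called by adjusted p and fold, or, in lists with fewer than 2 such genes, up to 4 with adjusted p under 0.05 by size, and the 5 genes most like the member with the widest range; Hspd1, Hspa5, Gm15459, Gm12346, Hsp25-ps1, Jund, Ier3 and Btg2 were named outside this rule, after their values were seen. Shared windows of 76 bases, the read length, were counted in GENCODE M21 transcripts, where the longest transcript of a gene gave its length, for the 10 members only; other named genes were not checked for shared reads. Markers of mast cells and basophils, B and plasma cells, erythroid cells, macrophages and T and NK cells were also summed, and their values are among the other observations. Alternatives changed the filter, scaling, pseudocount, variance model, repeated names, fold and samples; scaling to equal totals was added after seeing the data.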

Additional observations from a re-analysis of the deposited data

How the results depend on the processing

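Over 188 values of the members under alternatives, 182 kept their direction and 6 turned. After quantile normalization Hspa8 was at -0.26, Hsp90ab1 at -0.51 and Dnajb1 at -0.024, and with equal totals, chosen after seeing the data, Hsf1 was at -0.10, Hsp90ab1 at -0.036 and Dnajb1 at -0.029. Members past adjusted p numbered 3, but 1 without a filter (Hspa1b) and 0 with a linear model for each gene. After quantile normalization 5 passed, all lower (Hspa1a, Hspa1b, Hspa8, Hsp90aa1 and Hsp90ab1). With equal totals 6 passed, all lower (Hspa1a, Hspa1b, Hsp90aa1, Hsph1, Hspb1 and Bag3). Members past adjusted p numbered 2, without Hspa8, with a stricter filter on low values (its adjusted p 0.0699), without a variance trend (0.127) and with robust variance (0.0574). The count was 2 to 4 when single samples were left out, and 4 without ribosomal, Gm and LOC names. After quantile normalization 2 also passed the fold (Hspa1a and Hspa1b). List genes called by adjusted p and fold numbered 0, with 0 to 2 when single samples were left out (1, Sqstm1, without Ly5.1 replicate 1, and 2, Hsbp1 and Jmjd6, without Ly5.1 replicate 3), and 6 at the lower fold threshold tried (Hsbp1, Hspe1, Jmjd6, Manf, P4hb and Sqstm1). The log2 ratio difference of Hsp90aa1 to Hsp90ab1 was 0.13 and that of both Hsp90 transcripts to Hspa8 was -0.23 after quantile normalization, and that of Hspa1b to Hspa1a ran from -0.0226 to 0.00832 with single samples left out. The cause of these shifts was not tested.

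With a replicate block 4 members passed adjusted p, Hsp90ab1 in addition (limma adjusted p = 0.00829). Same-numbered samples correlated at 0.0314, -0.0052 and 0.0899 in their deviations, and 3 of 6 samples correlated best with their own number. With 3 samples per genotype this cannot decide whether same-numbered pools came from the same chimeras. No label states that they did, and the main fit used no pairing. Depth is unknown, so how far low reads limit Hspb1 and Bag3 was not tested.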

Other observations

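Markers of other blood cells were read in the values as deposited, and their part in the heat shock results was not tested. The shares of all tested names by adjusted p were 10.6% higher and 4.18% lower. Of 7 mast cell and basophil markers tested 3 were higher and 1 lower in Ltbr-/- by limma's adjusted p, with a summed level of 15051 to 16167 against 6953 to 7846. The difference in this sum lay mostly in Cma1 (means 5470 and 2195) and Cyp11a1 (7717 and 3102). Cpa3 was also higher, Mcpt8, Ms4a2, Fcer1a and Prss34 had log2 fold changes below 0, and the median of the list was -0.04. Of 4 B and plasma cell markers 1 was higher and 2 were lower, with 1397 to 1532 against 2251 to 2415. Of 5 erythroid markers 1 was higher and none lower, with 3367 to 3682 against 2447 to 2681. The 1 that was higher, Hba-a1, had means of 2129 and 1083 and held most of the difference in this sum. Of 5 macrophage markers 1 was higher and none lower, with 1023 to 1080 against 845 to 1018. Neither of the T and NK cell markers tested passed, with 1027 to 1143 against 1087 to 1211. Among the defining markers Tpsb2 was at 1 in each sample, the value of most names that do not vary, and Ms4a1, Cd3e and Cd8a lay at or near 1.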
